A study of Mus musculus with 16 samples.

Results

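Of the 27670 genes and transcripts on the array, 69 were metalloproteases or their inhibitors by symbol: 20 Mmp, 4 Timp, 29 Adam and 16 Adamts genes. A gene was taken when its name was Mmp, Timp, Adam or Adamts followed by a number, leaving out Mmp12 and Adamts1, and it was represented by its brightest probe. Total RNA of whole ovaries from mice aged 1 year was hybridised to 16 single-colour Agilent arrays, 4 in each of 4 groups. The control ovaries kept a single allele of both estrogen receptor (ER) genes. In Ex3aERKO it was ERα that was knocked out, in Ex3bERKO it was ERβ, and Ex3abERKO ovaries lacked both. The control is therefore not a wild type with a full gene dose. How the knockout alleles were made, the strain and whether animals were pooled are not given in the sources used here. The labels do not state whether replicates are different mice. The p-values therefore reflect variation between these samples, pooled over the 4 groups, and that variation may be technical.

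Matrix metalloproteinases (Mmp genes) are zinc enzymes, secreted or held in the membrane, that cut collagens, gelatin, proteoglycans and other matrix proteins. The Timp genes encode their inhibitors. Adam genes encode membrane proteins of which some shed growth factors, cytokines and receptors from the cell surface and others lack enzyme activity, and Adamts genes encode secreted enzymes that cut proteoglycans such as versican and aggrecan or trim procollagens. In the ovary these families are known for the breakdown of the follicle wall at ovulation and for the building and regression of the corpus luteum.

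Of the 69 genes, 63 had a probe well above background on at least 4 arrays and were tested, and 60 were well above background on all 16. The 6 genes not tested were Adam22, Adam24 and Adamts13, not well above background on any array, Adam29 and Mmp20, above it on 2 arrays each, and Adam7, above it on 3. No probe was saturated. Adam6a and Adam6b are near-identical copies whose probes may share targets, so their separate values are uncertain.

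A run of 7 Mmp genes is on chromosome 9, in the order Mmp13, Mmp3, Mmp1a, Mmp10, Mmp8, Mmp20 and Mmp7, with probes from base 7280046 to base 7695493 in the array's build (mm7). Their promoters are shown because these neighbours gave calls in opposite directions. RefSeq (GRCm38.p6) gave a promoter window for all 7. Each match to TGANTCA, a loose pattern for the AP-1 element known from MMP promoters, is in capitals below. The last 100 bases before the start are printed 5′ to 3′ on the plus strand. From Mmp13 (chr9:7272414-7272513) to Mmp7 (chr9:7691990-7692089) they read as follows.
Mmp13: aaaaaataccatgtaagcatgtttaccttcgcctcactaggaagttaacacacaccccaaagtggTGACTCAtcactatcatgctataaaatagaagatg
Mmp3: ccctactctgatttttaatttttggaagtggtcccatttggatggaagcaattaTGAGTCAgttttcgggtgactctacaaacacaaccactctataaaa
Mmp1a: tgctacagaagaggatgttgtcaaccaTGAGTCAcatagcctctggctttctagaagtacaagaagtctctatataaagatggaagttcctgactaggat
Mmp10: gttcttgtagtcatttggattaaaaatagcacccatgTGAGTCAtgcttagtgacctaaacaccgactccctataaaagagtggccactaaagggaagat
Mmp8: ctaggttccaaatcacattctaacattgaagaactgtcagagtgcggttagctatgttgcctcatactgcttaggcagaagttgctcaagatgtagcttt
Mmp20: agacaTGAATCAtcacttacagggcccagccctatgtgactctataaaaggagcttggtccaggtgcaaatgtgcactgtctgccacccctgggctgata
Mmp7: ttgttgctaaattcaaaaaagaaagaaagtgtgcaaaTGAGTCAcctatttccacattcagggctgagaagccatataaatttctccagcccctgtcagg

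The motif TGANTCA was searched on both strands of the 250 bases before the start. It was found in 6 of these 7 windows, between 29 and 95 bases before the start. The match of Mmp20 was TGAATCA, and the others were TGAGTCA or TGACTCA. RefSeq gave Mmp7 another window (chr9:7692091-7692340) with no match, and the window printed was chosen because it held one. The window of Mmp8 held none. A window was at hand for 40 of the 69 genes (44 windows). TGANTCA was in 9 of the 44 windows (20.45%), against 6.749% of all 32851 windows of that length. Of these 9 windows, 6 are those of the chromosome 9 genes above, and the others are of Adam19, Adam25 and Adam29. The share is therefore not one of the families as a whole. The palindromic estrogen response element was in 0 of the 44 windows (0.06392% of all), and the NR5A motif CAAGGTCA in 0 (1.333% of all). These are matches of letters in a window and not sites of binding.

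All levels below are log2 of the probe's signal relative to the 75th percentile of its array, listed in the order of replicates 1 to 4. Differences are log2 differences of group means ± SE from limma over 4 arrays a group, and a gene is called when its p, adjusted by Benjamini-Hochberg over the 24367 genes and transcripts tested, is under 0.05. Levels of different genes are not compared, because probes differ in brightness. The arrays had 80.4% to 87.6% of spots well above background, and replicates of a group correlated at 0.954 to 0.986. Esr1 (ERα) ranged in control from -0.32 to 0.20, in Ex3aERKO from -3.66 to -1.89, in Ex3bERKO from -1.06 to 0.34 and in Ex3abERKO from -2.11 to -1.04. Esr2 (ERβ) ranged from -0.33 to 0.34, -1.07 to 1.58, -0.58 to 1.00 and -2.54 to -1.61 in the same groups. The position of these probes relative to the altered part of each gene is not known here, so the Esr2 level in Ex3bERKO checks nothing about the label. Esr2 lay wholly below control in Ex3abERKO but overlapped control in Ex3bERKO, though both groups are described as without ERβ. The cause of this difference was not tested. Of the ovary's own cells, all 7 granulosa cell markers, such as Foxl2 and Fshr, were tested and thus above background. In all, 3 arrays stood apart in markers of other tissues, control 4 only from the other controls. The summed linear level of liver markers was 111.6 on Ex3aERKO 2 and at most 1.11 on any other array. That of oviduct markers was 47.19 on Ex3abERKO 2 and at most 3.98 elsewhere. That of erythroid markers was 133.3 on control 4 and 10.1 to 15.61 on the other controls. It was 29.82 to 95.31 on Ex3aERKO, 12.73 to 45.46 on Ex3bERKO and 34.45 to 100.3 on Ex3abERKO arrays, none of which was left out for it. Counts without these 3 arrays are given beside the counts below.

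Most protease genes were not called against control, and most of those called without both receptors were higher. In Ex3aERKO, 10 of the 63 tested genes were called, 6 higher and 4 lower, where 8.06% of all genes and transcripts tested were called (3.86% higher and 4.2% lower). In Ex3abERKO, 19 were called, 17 higher and 2 lower, where 22.4% of all were called (10.7% higher and 11.7% lower). The median difference of the 63 genes was -0.07 in Ex3aERKO and 0.05 in Ex3abERKO, beside -0.08 and -0.10 over all tested. Ex3bERKO gave 0 calls with limma, where 1.05% of all were called, and 8 of the 63 had an unadjusted p under 0.05. Both sets of calls rest on the same 4 control arrays. Without the 3 arrays named above, 3 genes were called in Ex3aERKO, all higher, and 10 in Ex3abERKO, 8 of them higher. Over all genes and transcripts tested, calls then fell from 1964 to 565 in Ex3aERKO and from 5447 to 3232 in Ex3abERKO. In Ex3abERKO the count of the 63 genes also came to 11 without control 2, 12 without control 3 and 12 without Ex3abERKO 2. The counts over all tested were then 4466, 3872 and 4246.

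**Figure D1:**
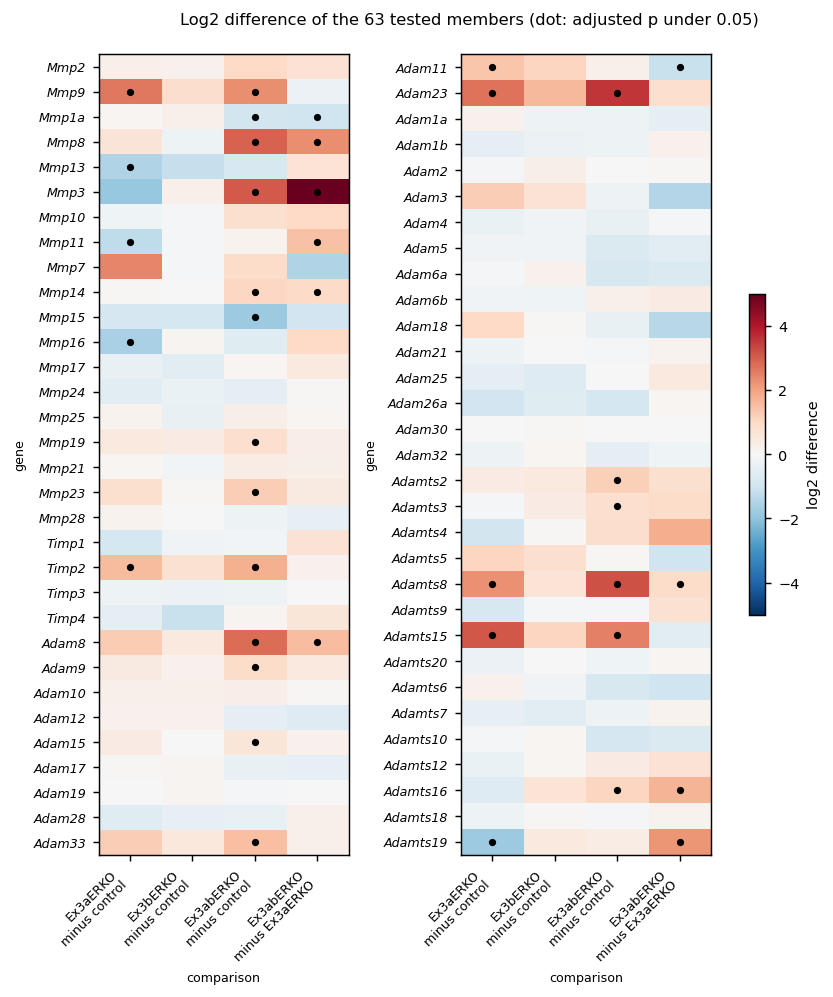
Colour shows the log2 difference of each of the 63 tested genes (rows, in families) in 4 comparisons (columns), and a black dot marks an adjusted p under 0.05. The Ex3bERKO column has no dot, and 17 of the 19 dots of the Ex3abERKO minus control column lie on red cells.

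The 5 genes called higher in both Ex3aERKO and Ex3abERKO were Mmp9, Adam23, Adamts8, Adamts15 and Timp2. Both comparisons use the same controls. Adam11 was called higher in Ex3aERKO, and Mmp11, Mmp13, Mmp16 and Adamts19 were called lower there. A further 12 genes were called higher and 2 lower in Ex3abERKO. Of the 63 genes, 39 were called in none of the 7 comparisons made.

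Mmp9, a gelatinase made in many tissues by myeloid cells among others, was -3.74, -3.32, -2.50 and -3.05 in control. Ex3aERKO arrays had Mmp9 at -0.31, -0.21, -0.06 and -1.48, Ex3bERKO arrays at -2.57, -1.35, -1.62 and -3.58 and Ex3abERKO arrays at -1.02, -0.70, -1.14 and -0.40. Every Ex3aERKO and Ex3abERKO array lay above every control array, while Ex3bERKO overlapped the controls. Mmp9 rose by 2.64 ± 0.45 in Ex3aERKO (adjusted p = 0.00253) and by 2.34 ± 0.45 in Ex3abERKO (adjusted p = 0.00197). Another Mmp9 probe gave 2.25 and 1.69, both called. With another background correction (normexp, which here added a constant to every spot) the differences were 1.67 (adjusted p = 0.0616) and 1.35 (adjusted p = 0.0739). Mmp2, the other gelatinase, was 1.23, 1.30, 1.36 and 1.87 in control and 3.69, 2.60, 1.37 and 2.01 in Ex3abERKO. Ex3aERKO arrays had Mmp2 at 1.80, 1.72, 1.79 and 1.46 and Ex3bERKO arrays at 1.39, 2.18, 1.82 and 1.23. All groups overlapped the controls, the Ex3abERKO difference was 0.98 ± 0.37 (adjusted p = 0.0754), and it was not called in Ex3aERKO or Ex3bERKO either.

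Among the chromosome 9 neighbours, Mmp3 and Mmp8 rose without both receptors and Mmp1a fell. Mmp3, the stromelysin that activates other MMPs and cuts proteoglycans, was -4.80, -6.10, -4.17 and -3.32 in control and -7.17, -6.57, -6.38 and -5.85 in Ex3aERKO, where 3 of the 4 arrays were well above background. It was -1.26, -4.70, -6.60 and -4.85 in Ex3bERKO and -0.27, -1.56, -2.81 and -1.53 in Ex3abERKO. The Ex3abERKO arrays lay above all control and Ex3aERKO arrays but not above Ex3bERKO 1. Mmp3 was 3.05 ± 0.90 higher in Ex3abERKO than in control (8.31-fold, adjusted p = 0.0247) and 4.95 ± 0.90 higher than in Ex3aERKO (adjusted p = 0.00503). The call against control is lost without control 1, control 2, Ex3abERKO 1 or Ex3abERKO 2 (adjusted p from 0.05177 to 0.07661), with slide as a fixed block (2.87, adjusted p = 0.05348) and with normexp (1.58, adjusted p = 0.170). With normexp the difference from Ex3aERKO was 3.06 (adjusted p = 0.0319). Ex3aERKO differed from control by -1.90 ± 0.90 with overlap (adjusted p = 0.247).

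Mmp8, the collagenase best known from neutrophils, was -3.84, -6.07, -5.50 and -4.86 in control. Ex3aERKO arrays had Mmp8 at -5.66, -3.33, -4.31 and -4.39, Ex3bERKO arrays at -5.75, -4.10, -5.83 and -5.60 and Ex3abERKO arrays at -2.11, -1.16, -2.14 and -3.06. The 4 Ex3abERKO arrays were the highest of all 16. The difference from control was 2.95 ± 0.57 (7.73-fold, adjusted p = 0.0023), and 1.38 with normexp (adjusted p = 0.135). The 8 neutrophil markers had sums of 0.7174 to 3.155 on control arrays and 2.712 to 24.92 on Ex3abERKO arrays, with Ex3aERKO at 0.877 to 10.72 and Ex3bERKO at 0.739 to 1.08, and 3 of the 8 were called higher in Ex3abERKO. Their part in the Mmp8 difference was not tested. Whole-ovary RNA cannot tell more cells of a type from more RNA per cell.

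Mmp13, a collagenase, was -3.69, -4.35, -4.47 and -3.41 in control and -5.89, -5.09, -5.69 and -5.20 in Ex3aERKO. All Ex3aERKO arrays lay below the controls, a fall of 1.49 on the log2 scale (SE 0.32, adjusted p = 0.0108). Ex3bERKO was at -5.43, -5.24, -5.63 and -4.18 and Ex3abERKO at -4.50, -5.03, -5.01 and -4.59, and neither was called (differences of -1.14 and -0.80, adjusted p = 0.132 and 0.0887). The Ex3aERKO call was lost with normexp (-1.24, adjusted p = 0.134) and without the 3 arrays that stood apart (-1.42, adjusted p = 0.0708). Without Ex3bERKO 4, Mmp13 was called in Ex3bERKO and in Ex3abERKO as well. Mmp1a fell in Ex3abERKO by 0.92 (adjusted p = 0.0273), but its groups overlapped, slide 2 gave 0.02, and its second probe gave -0.16 (adjusted p = 0.832). That call is lost without any of control 1, 2 and 3 and Ex3abERKO 3 and 4 (adjusted p from 0.05555 to 0.08453). Mmp10, a second stromelysin, and Mmp7, matrilysin, were not called. Mmp7 was 0.30 on Ex3aERKO 2, 1.55 on Ex3aERKO 3 and -0.81 on Ex3abERKO 2, and between -4.37 and -2.59 on the other 13 arrays. The oviduct marker sum was 1.433, 3.978 and 47.19 on those 3 arrays, and its part in the Mmp7 levels was not tested.

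**Figure D2:**
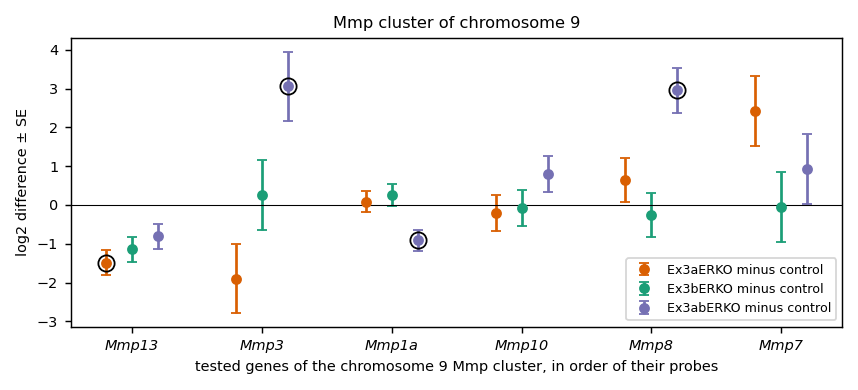
Points are log2 differences from control with their SE for the 6 tested genes of the chromosome 9 cluster, in the order of their probes, and black rings mark an adjusted p under 0.05. Mmp3 (3.05) and Mmp8 (2.95) lie high in Ex3abERKO, and in Ex3aERKO Mmp3 (-1.90, no ring) and Mmp13 (-1.49, ringed) lie lowest.

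Mmp11, stromelysin-3, and Mmp16, a membrane-type MMP, fell in Ex3aERKO. Mmp11 was 3.19, 3.16, 3.35 and 3.10 in control. Ex3aERKO arrays had Mmp11 at 1.91, 1.69, 1.58 and 2.54, Ex3bERKO arrays at 2.88, 3.02, 3.31 and 3.35 and Ex3abERKO arrays at 4.24, 3.08, 3.43 and 2.78. The Ex3aERKO arrays were the 4 lowest of the 16. Mmp11 fell by 1.27 there (SE 0.28, adjusted p = 0.0111), a call lost without the 3 arrays that stood apart (-1.22, adjusted p = 0.0949), and it was 0.18 ± 0.28 from control in Ex3abERKO. Mmp16 was -2.51, -2.21, -2.50 and -2.66 in control. Ex3aERKO arrays had Mmp16 at -3.13, -4.18, -3.62 and -5.39, Ex3bERKO arrays at -1.83, -2.66, -2.59 and -2.29 and Ex3abERKO arrays at -2.52, -2.74, -3.27 and -3.75. Its Ex3aERKO arrays lay below all control and Ex3bERKO arrays and overlapped Ex3abERKO. It fell by 1.61 in Ex3aERKO (SE 0.40, adjusted p = 0.0217), a call lost without control 1, 2 or 3 or Ex3aERKO 2 (adjusted p from 0.05056 to 0.06089), with the 2 groups fitted alone (adjusted p = 0.0672) and without the 3 arrays that stood apart (-1.64, adjusted p = 0.129).

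Mmp14, the membrane-type MMP that activates pro-Mmp2, rose in Ex3abERKO. It was 4.13, 3.89, 3.39 and 3.31 in control. Ex3aERKO arrays had Mmp14 at 3.64, 4.08, 3.52 and 3.72, Ex3bERKO arrays at 3.49, 3.98, 3.57 and 3.67 and Ex3abERKO arrays at 5.14, 4.41, 4.78 and 4.49. All 4 Ex3abERKO arrays lay above the other 12, by 1.02 ± 0.22 against control (2.03-fold, adjusted p = 0.00426). Its dimmer probe differed by 0.50 (adjusted p = 0.363). Mmp15, a further membrane-type MMP, was -0.79, -0.58, -0.32 and -1.05 in control. Ex3aERKO arrays had Mmp15 at -1.22, -1.35, -1.22 and -2.36, Ex3bERKO arrays at -1.64, -1.65, -1.50 and -1.39 and Ex3abERKO arrays at -1.98, -2.18, -3.61 and -2.20. Each knockout group lay wholly below the controls, and the fall of 1.81 in Ex3abERKO was called (SE 0.33, adjusted p = 0.00155), while the differences of -0.85 and -0.86 in Ex3aERKO and Ex3bERKO were not (adjusted p = 0.143 and 0.357). Mmp19 and Mmp23 rose in Ex3abERKO by 0.84 and 1.23 (adjusted p = 0.0419 and 0.00781). The Mmp19 call is lost without any of control 2, 3 and 4, Ex3aERKO 3, Ex3bERKO 3 and Ex3abERKO 1, 2 and 4 (adjusted p from 0.05295 to 0.1094), with normexp (0.23, adjusted p = 0.653) and with slide as a fixed block (adjusted p = 0.05509). The Mmp23 call is lost without the 3 arrays that stood apart (1.04, adjusted p = 0.0789). Mmp17, Mmp24, Mmp25, Mmp21 and Mmp28 were called in no comparison with control.

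**Figure D3:**
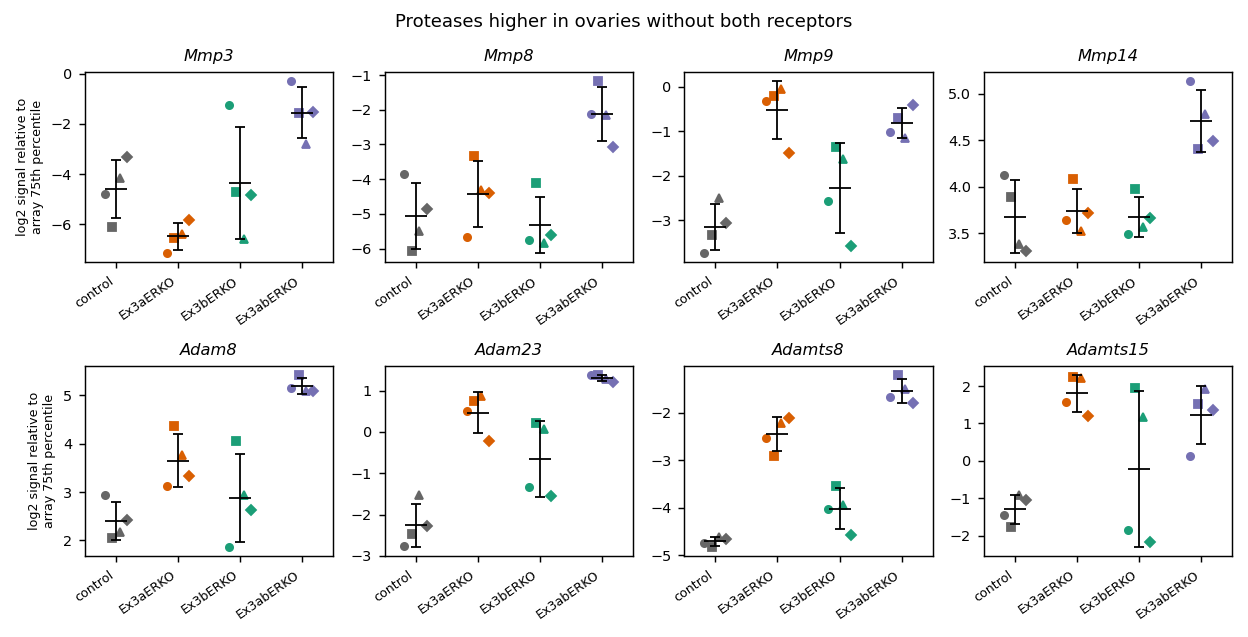
Each panel shows the log2 level of 1 gene on the 16 arrays by group, with marker shapes for replicates 1 to 4 (circle, square, triangle, diamond) and the mean ± SD in black. In Mmp8, Mmp14, Adam8, Adam23 and Adamts8 all Ex3abERKO arrays lie above all arrays of the other groups, and in Adamts15 Ex3bERKO arrays 2 and 3 lie at 1.94 and 1.18 with arrays 1 and 4 at -1.84 and -2.18.

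Of the 9 catalytic ADAMs of somatic tissues, 4 rose in Ex3abERKO (Adam8, Adam9, Adam15 and Adam33), and 0 were called in Ex3aERKO or Ex3bERKO. Over all genes and transcripts tested, 10.7% were called higher in Ex3abERKO, and 8.06% and 1.05% were called in Ex3aERKO and Ex3bERKO. Adam8, a sheddase of leukocytes and osteoclast-lineage cells, was 2.94, 2.06, 2.18 and 2.42 in control. Ex3aERKO arrays had Adam8 at 3.12, 4.36, 3.77 and 3.34, Ex3bERKO arrays at 1.86, 4.06, 2.93 and 2.64 and Ex3abERKO arrays at 5.16, 5.43, 5.08 and 5.10. Ex3abERKO arrays were the 4 highest and spanned the narrowest range of the groups. The rise was 2.79 ± 0.38 (6.94-fold, adjusted p = 0.00023). In Ex3aERKO the difference was 1.25 ± 0.38 and the arrays did not overlap the controls (adjusted p = 0.0582). With slide as a fixed block the same difference was called (adjusted p = 0.007476), as it was without Ex3bERKO 1 or Ex3bERKO 2 (adjusted p = 0.0318 and 0.0174). Adam9, a widely expressed sheddase, rose by 0.93 ± 0.21 in Ex3abERKO (adjusted p = 0.00572).

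Adam33 was -0.77, -1.40, -1.14 and -1.01 in control. Ex3aERKO arrays had Adam33 at -0.34, 0.96, 0.48 and -0.53, Ex3bERKO arrays at -1.60, 0.17, 0.02 and -0.81 and Ex3abERKO arrays at -0.74, 0.64, 0.89 and 0.85. The lowest Ex3abERKO array lay just above the highest control array, and the rise of 1.49 ± 0.45 had an adjusted p of 0.0264. The call is lost without any of control 2 and 3 and Ex3abERKO 2, 3 and 4 (adjusted p from 0.06086 to 0.06993), and its 2 dimmer probes differed by 0.40 and 0.75 (neither called). Adam15 rose by 0.61 ± 0.17 (adjusted p = 0.0178), but its second probe gave -0.62 (adjusted p = 0.408), the mean of its probes gave -0.01 (adjusted p = 0.993), and the call is lost without control 3, Ex3abERKO 2 or Ex3abERKO 4 (adjusted p from 0.05364 to 0.05769). Adam10 and Adam17, the main sheddases of Notch and of Tnf and EGF-receptor ligands, differed from control in Ex3abERKO by 0.33 (95% interval -0.08 to 0.74) and -0.37 (95% interval -0.89 to 0.15) and were called in no comparison.

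Adam23 and Adam11, ADAMs of the nervous system without enzyme activity, were the 2 Adam genes called in Ex3aERKO. Adam23 was -2.77, -2.48, -1.53 and -2.27 in control. Ex3aERKO arrays had Adam23 at 0.50, 0.74, 0.86 and -0.23, Ex3bERKO arrays at -1.33, 0.21, 0.06 and -1.56 and Ex3abERKO arrays at 1.37, 1.38, 1.29 and 1.22. All Ex3aERKO and Ex3abERKO arrays lay above all controls, and the Ex3abERKO arrays also lay above all others. The rises were 2.73 ± 0.39 in Ex3aERKO (6.63-fold, adjusted p = 0.000828) and 3.58 ± 0.39 in Ex3abERKO (adjusted p = 6.03e-05), and a second probe gave 2.98 and 3.81. Both calls were kept under all 30 alternatives tried. Adam11 was -2.35, -2.45, -3.43 and -3.82 in control. Ex3aERKO arrays had Adam11 at -2.02, -1.74, -1.34 and -1.41, Ex3bERKO arrays at -2.45, -1.70, -1.67 and -1.98 and Ex3abERKO arrays at -2.68, -2.28, -3.02 and -3.03. It was higher in every Ex3aERKO array than in any control or Ex3abERKO array. It rose by 1.39 ± 0.32 in Ex3aERKO (adjusted p = 0.0147) and 2 further probes gave 1.33 and 1.19, both called. That call is lost without control 3 (adjusted p = 0.0555), without Ex3aERKO 3 (adjusted p = 0.0509), without the 3 arrays that stood apart (adjusted p = 0.0930), with the 2 groups alone (adjusted p = 0.0555) and with normexp (0.81, adjusted p = 0.314).

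Of the 17 ADAMs known from testis or epididymis, where they serve sperm maturation and sperm-egg binding, 14 were tested. None of these 14 was called in any of the 7 comparisons. The share called over all tested ran from 1.05% (Ex3bERKO against control) to 22.4% (Ex3abERKO against control). The median difference of the 14 was -0.17 in Ex3aERKO, -0.08 in Ex3bERKO and -0.25 in Ex3abERKO, beside -0.08, 0.01 and -0.10 over all tested. Likewise 0 of 7 male germ cell markers were called. Among 8 Sertoli cell markers, 7 were higher and 1 was lower in Ex3abERKO.

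Adamts8 and Adamts15, neighbours on chromosome 9 whose probes lie 61.66 kb apart (mm7), are proteoglycanases and both rose in Ex3aERKO and Ex3abERKO. Adamts8 was -4.73, -4.83, -4.62 and -4.65 in control. Ex3aERKO arrays had Adamts8 at -2.52, -2.90, -2.22 and -2.11, Ex3bERKO arrays at -4.02, -3.54, -3.93 and -4.58 and Ex3abERKO arrays at -1.66, -1.19, -1.49 and -1.78. The 4 groups did not overlap at all. The rise was 2.27 ± 0.22 in Ex3aERKO (4.82-fold, adjusted p = 8.95e-05) and 3.18 ± 0.22 in Ex3abERKO (9.04-fold, adjusted p = 2.86e-06), and 0.69 ± 0.22 in Ex3bERKO was not called (adjusted p = 0.218). The second probe gave 2.03 and 2.71, both called. With normexp the 2 rises were 0.88 (adjusted p = 0.338) and 1.71 (adjusted p = 0.0275).

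Adamts15 was -1.46, -1.78, -0.92 and -1.05 in control. Ex3aERKO arrays had Adamts15 at 1.57, 2.23, 2.21 and 1.21, Ex3bERKO arrays at -1.84, 1.94, 1.18 and -2.18 and Ex3abERKO arrays at 0.12, 1.51, 1.92 and 1.36. Ex3aERKO and Ex3abERKO lay above the controls, and Ex3bERKO had 2 arrays above and 2 below them. The rises were 3.11 ± 0.75 (8.64-fold, adjusted p = 0.0198) and 2.53 ± 0.75 (5.79-fold, adjusted p = 0.0256). The first is lost without control 1 or 2 or Ex3aERKO 2 or 3 (adjusted p from 0.05014 to 0.06066), the second without control 1 or 2 or Ex3abERKO 2, 3 or 4 (adjusted p from 0.05379 to 0.0642), and both without the 3 arrays that stood apart (adjusted p = 0.138 and 0.107). The 8 Sertoli cell markers had sums of 2.003 to 2.411 on control arrays, 37.96 to 61.09 on Ex3aERKO arrays, 18.23 to 52.48 on Ex3abERKO arrays, and 5.836, 16.97, 32.22 and 3.355 in Ex3bERKO arrays 1 to 4. Their part in the Adamts15, Adam23 and Mmp9 levels was not tested. Arrays 1 and 4 of Ex3bERKO lay on slide 3, array 2 on slide 1 and array 3 on slide 4.

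The other proteoglycanases, Adamts4, Adamts5, Adamts9 and Adamts20, were not called in any comparison. Adamts5 differed from control by 1.06 ± 0.36 in Ex3aERKO (adjusted p = 0.0928), with no overlap, and by 0.05 ± 0.36 in Ex3abERKO. Adamts4 was 0.82 on Ex3abERKO 3 and between -3.93 and -1.83 on the other 15 arrays. The procollagen proteases Adamts2 and Adamts3 rose in Ex3abERKO by 1.21 ± 0.40 and 0.84 ± 0.28 (adjusted p = 0.0403 and 0.0449). Of 3 further Adamts2 probes, the differences were 0.21, 0.14 and -1.08, and a second Adamts3 probe gave 0.17, with no call. The Adamts2 call is lost without any array of control or of Ex3abERKO, or Ex3bERKO 3 (adjusted p from 0.05024 to 0.09023). That of Adamts3 is lost without any of control 1, 2 and 3, Ex3aERKO 3, Ex3bERKO 1, 2 and 3 and Ex3abERKO 1 and 3 (adjusted p from 0.05265 to 0.108). Slide as a fixed block ends both (adjusted p = 0.06632 and 0.05975), and normexp ends that of Adamts3 (0.13, adjusted p = 0.831).

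Adamts19, an enzyme with no well-known substrate, fell in Ex3aERKO and not in Ex3abERKO. It was 0.21, 0.75, 0.97 and 0.98 in control. Ex3aERKO arrays had Adamts19 at -0.76, -0.80, -0.67 and -2.11, Ex3bERKO arrays at 1.37, 0.34, 1.74 and 1.39 and Ex3abERKO arrays at 1.79, 0.93, 1.26 and 0.43. All Ex3aERKO arrays were below all other 12. The fall of 1.81 against control (SE 0.38, adjusted p = 0.00892) was seen with 2 further probes (-1.76 and -1.68, both called), and it was lost without the 3 arrays that stood apart (-1.82, adjusted p = 0.0755). Adamts16 was -3.92, -3.41, -3.39 and -3.64 in control. Ex3aERKO arrays had Adamts16 at -3.73, -4.31, -4.10 and -4.84, Ex3bERKO arrays at -2.57, -3.75, -2.83 and -2.44 and Ex3abERKO arrays at -1.63, -2.23, -3.17 and -3.09. Its Ex3abERKO arrays lay above those of control and Ex3aERKO and overlapped Ex3bERKO. Its rise in Ex3abERKO, 1.06 ± 0.36, was close to the threshold (adjusted p = 0.0476), and its second probe gave 0.59 (adjusted p = 0.434). The call is lost without any control array, Ex3aERKO 2 or 3, Ex3bERKO 1, 3 or 4, or Ex3abERKO 1 or 2 (adjusted p from 0.05028 to 0.134), and with normexp (0.29, adjusted p = 0.618).

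**Figure D4:**
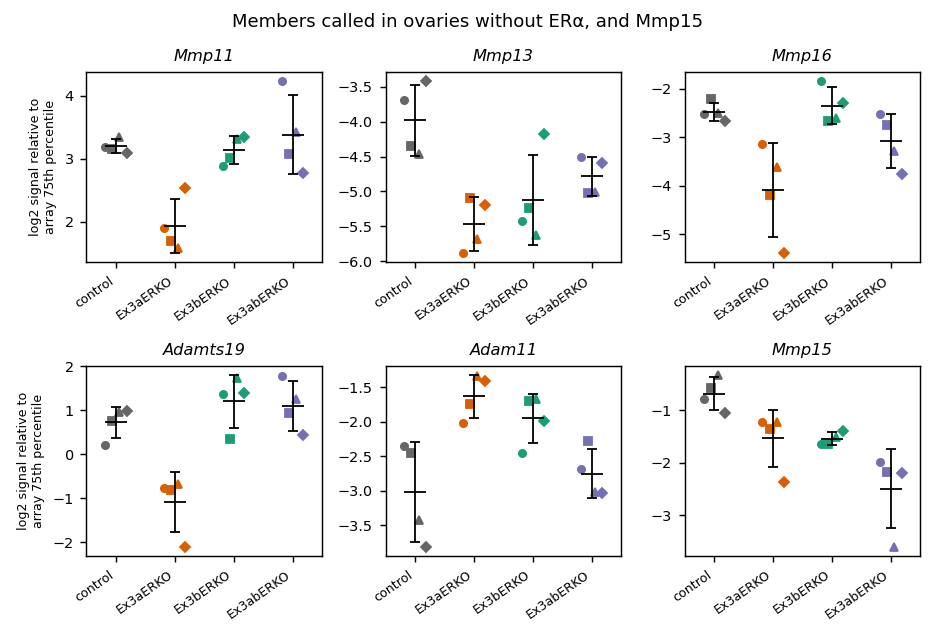
Panels show the log2 level of Mmp11, Mmp13, Mmp16, Adamts19, Adam11 and Mmp15 on the 16 arrays by group, with marker shapes for replicates 1 to 4 and the mean ± SD in black. Mmp11, Mmp13, Mmp16 and Adamts19 are lower in Ex3aERKO than in control with no overlap, and Adam11 is higher there.

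Of the 4 inhibitors, 1 was called. Timp2, which inhibits MMPs and also helps Mmp14 to activate pro-Mmp2, was 4.41, 4.50, 4.24 and 4.26 in control. Ex3aERKO arrays had Timp2 at 6.04, 6.18, 6.11 and 5.37, Ex3bERKO arrays at 4.41, 5.75, 5.55 and 4.71 and Ex3abERKO arrays at 5.94, 6.50, 5.63 and 6.46. Ex3aERKO and Ex3abERKO lay wholly above control, and Ex3bERKO arrays 2 and 3 lay among them. The rises were 1.57 ± 0.29 (2.97-fold, adjusted p = 0.00466) and 1.78 ± 0.29 (3.44-fold, adjusted p = 0.000807). Without the 3 arrays that stood apart the first was 1.46 (adjusted p = 0.0615). Timp1 was 3.44, 4.44, 2.82 and 3.32 in control and 4.51, 2.77, 3.58 and 2.58 in Ex3abERKO, a difference of -0.14 ± 0.54 (95% interval -1.30 to 1.01). Ex3aERKO arrays had Timp1 at 3.16, 2.92, 2.51 and 1.94 and Ex3bERKO arrays at 3.04, 4.82, 3.21 and 2.19, and all groups overlapped. Timp3, held in the matrix, was 3.66, 3.25, 3.67 and 3.65 in control. Ex3aERKO arrays had Timp3 at 3.36, 3.20, 3.43 and 3.19, Ex3bERKO arrays at 3.27, 3.42, 3.09 and 3.29 and Ex3abERKO arrays at 3.49, 3.46, 2.97 and 3.28. Control arrays 1, 3 and 4 were the highest of the 16, and the Timp3 difference from control lay between -0.29 and -0.26 in the 3 knockout groups with no call. Timp4 was -0.87, -2.36, -1.28 and -0.77 in control. Ex3aERKO arrays had Timp4 at -2.01, -0.71, -2.34 and -2.06, Ex3bERKO arrays at -2.62, -2.38, -1.96 and -2.76 and Ex3abERKO arrays at -1.64, -0.21, -1.94 and -0.98. All groups overlapped control, and the largest difference from control, -1.11 in Ex3bERKO, was not called (adjusted p = 0.380).

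**Figure D5:**
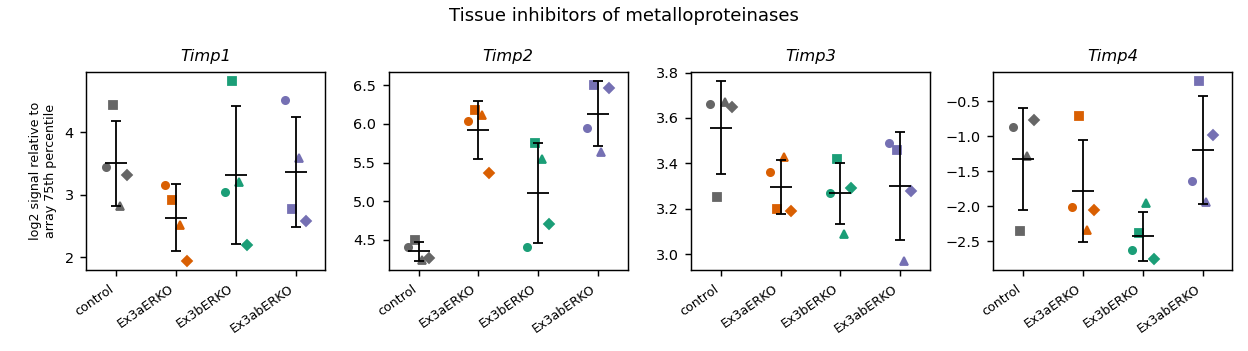
Panels show the log2 level of the 4 Timp genes on the 16 arrays by group, with marker shapes for replicates 1 to 4 and the mean ± SD in black. Timp2 lies at 4.24 to 4.50 in control and at 5.37 or above in Ex3aERKO and Ex3abERKO, and the other 3 inhibitors overlap control in every knockout group.

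In Ex3bERKO the largest difference from control was that of Adam23, 1.61 ± 0.39 (adjusted p = 0.0689), from arrays at -1.33, 0.21, 0.06 and -1.56. Adam23 was called with slide as a random block (adjusted p = 0.03831), array weights (adjusted p = 0.03882), a trended and robust fit (adjusted p = 0.0437) and the replicate block (adjusted p = 0.04217). Without Ex3bERKO 4 the count of 0 became 2, Adam23 higher (adjusted p = 0.02999) and Mmp13 lower (over all genes 0.398% were called higher and 0.657% lower with all arrays).

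The comparison of Ex3abERKO with Ex3aERKO asks what the added loss of ERβ does where ERα is absent. It called 10 genes, 8 higher and 2 lower, where 7.78% of all tested were called (4.43% higher and 3.35% lower). Higher were Mmp3, Mmp8, Mmp11, Mmp14, Adam8, Adamts8, Adamts16 and Adamts19, and lower were Adam11 and Mmp1a. Mmp3 had the largest difference, 4.95 (3.06 with normexp), with 3 of the 4 Ex3aERKO arrays well above background, followed by Mmp8 at 2.31 ± 0.57 (adjusted p = 0.0244), Adamts19 at 2.19 ± 0.38 (adjusted p = 0.00401) and Adamts16 at 1.72 ± 0.36 (adjusted p = 0.0109). Mmp11 was 1.46 ± 0.28 higher (adjusted p = 0.00644) and Adam8 1.54 ± 0.38 higher (adjusted p = 0.0229). The second probes of Adamts16, Mmp14, Mmp1a and Adamts8 differed by 0.02, 0.18, -0.11 and 0.68 with no call. Further Adamts19 probes gave 1.83 and 2.14, both called. The calls lost with normexp were those of Adamts16 (1.28, adjusted p = 0.114), Mmp8 (1.66, adjusted p = 0.148), Adamts8 (0.83, adjusted p = 0.513), Adam11 (-0.92, adjusted p = 0.282) and Mmp1a (-0.51, adjusted p = 0.738). With the 2 groups fitted alone 3 calls were left, Mmp3, Adam8 and Adamts19. Mmp9, Timp2 and Adamts15 differed by -0.30, 0.21 and -0.58 between these groups, with 95% intervals of -1.25 to 0.65, -0.42 to 0.84 and -2.19 to 1.03. Without Ex3aERKO 1 the count was 5, and without the 3 arrays that stood apart it was 5. The Mmp8 call is lost without Ex3aERKO 1 or 4 or Ex3abERKO 2 (adjusted p from 0.05948 to 0.07587), the Adam8 call without the same arrays (adjusted p from 0.06148 to 0.07147), and the Adamts8 call, a difference of 0.91, without Ex3aERKO 1 or 2 or Ex3abERKO 2 (adjusted p from 0.05953 to 0.06843). Adam11, lower by 1.13 (adjusted p = 0.0433), lost its call without any of control 3, the 4 Ex3aERKO arrays, Ex3bERKO 2, 3 and 4 and Ex3abERKO 1, 3 and 4 (adjusted p from 0.0503 to 0.1156), though its 2 other probes were called lower. Mmp1a, lower by 1.00, lost its call without any of control 2, Ex3aERKO 1, 2 and 4 and Ex3abERKO 1, 3 and 4 (adjusted p from 0.05044 to 0.1171).

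The comparison of Ex3abERKO with Ex3bERKO, the added loss of ERα where ERβ is absent, called 12 genes, 11 higher and 1 lower, where 16.7% of all tested were called (8.27% higher and 8.43% lower). Mmp8 was 3.20 ± 0.57 higher (adjusted p = 0.0023; 2.12 with normexp), Adamts8 2.49 ± 0.22 (adjusted p = 1.97e-05), Adam8 2.32 ± 0.38 (adjusted p = 0.0014) and Adam23 1.97 ± 0.39 (adjusted p = 0.00396). Mmp3, Mmp9, Mmp14, Mmp23, Timp2, Adam9 and Adam15 were also called higher, and Mmp1a lower. The second probes of Mmp9, Mmp14, Adam15 and Mmp1a differed by 1.00, 0.45, -0.66 and -0.19 with no call. Those of Adamts8 and Adam23 gave 2.28 and 2.10, both called. Slide 1 gave -0.12 for Timp2 and -0.11 for Mmp23, and slide 4 gave 0.91 and 0.92. With slide as a fixed block 6 genes were called, with normexp 7, with the 2 groups fitted alone 6, without Ex3bERKO 4 there were 7, and without the 3 arrays that stood apart there were 6. Single arrays of Ex3bERKO or Ex3abERKO, left out, end the calls of Mmp9 (Ex3bERKO 1 and 4, Ex3abERKO 1, 2 and 4, adjusted p from 0.0536 to 0.1145), Timp2 and Adam15 (Ex3bERKO 1 and 4, Ex3abERKO 2 and 4, adjusted p from 0.06857 to 0.09281), Adam9 (Ex3bERKO 1, 3 and 4, adjusted p from 0.05528 to 0.08169) and Mmp23 (Ex3bERKO 4, adjusted p = 0.05177). Mmp3 kept its call only without control 2, control 4, Ex3aERKO 4, Ex3bERKO 1 or Ex3abERKO 3, and otherwise had an adjusted p from 0.05465 to 0.1365. Adamts15 was 1.45 ± 0.75 apart and not called (adjusted p = 0.212).

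Ex3aERKO and Ex3bERKO differed in 4 genes, 1 higher and 3 lower in Ex3aERKO, where 2.36% of all tested were called (0.657% higher and 1.7% lower). Adamts8 was 1.58 ± 0.22 higher (adjusted p = 0.00174; 1.17 with normexp, adjusted p = 0.457). Adamts19 (-2.30, adjusted p = 0.00387), Mmp16 (-1.74, adjusted p = 0.033) and Mmp11 (-1.21, adjusted p = 0.0322) were lower. Mmp16 lost its call without Ex3aERKO 2 or Ex3bERKO 1, 3 or 4 (adjusted p from 0.05775 to 0.1176), and Mmp11 without Ex3aERKO 1, 2 or 3 or Ex3bERKO 1, 3 or 4 (adjusted p from 0.05781 to 0.1153). The count was 2 without Ex3aERKO 2, Ex3bERKO 1, Ex3bERKO 3 or Ex3bERKO 4 and 7 without Ex3bERKO 2, and with each array scaled to its median 2 genes were higher and 2 lower. With the 2 groups fitted alone 0 of the 4 were called, Adamts8 and Adamts19 at adjusted p = 0.05436 and 0.06172.

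The interaction asks whether the effect of ERβ loss differs with ERα absent or present: the difference of Ex3abERKO from Ex3aERKO, minus that of Ex3bERKO from control. It was called for 3 genes, 2 higher and 1 lower, where 3.62% of all tested were called (1.84% higher and 1.78% lower). With each array scaled to its median 1 was higher and 1 lower. Adam11 had -2.19 ± 0.45 (adjusted p = 0.0158), from differences of -1.13 and 1.06, and its 2 other probes were called too. Mmp13 had 1.82 ± 0.45 (adjusted p = 0.0397), from 0.68 and -1.14, and Mmp11 had 1.51 ± 0.39 (adjusted p = 0.0466), from 1.46 and -0.06. Without control 1, control 4, Ex3aERKO 1, Ex3bERKO 2, Ex3bERKO 3, Ex3abERKO 1 or Ex3abERKO 2 the count was 1, with Adam11 kept each time. With normexp all 3 calls were lost (adjusted p = 0.260 for Adam11, 0.307 for Mmp13 and 0.129 for Mmp11), and slide as a fixed block ended those of Mmp13 and Mmp11 (adjusted p = 0.1205 and 0.1295). Mmp13 kept its call only without control 2, control 3, Ex3aERKO 2, Ex3bERKO 4 or Ex3abERKO 3, and Mmp11 only without Ex3aERKO 4 or Ex3abERKO 4; otherwise the adjusted p was 0.05036 to 0.08856 for Mmp13 and 0.05247 to 0.09248 for Mmp11. Mmp3 had 4.70 ± 1.27 and was not called (adjusted p = 0.0574).

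Genes that act with these proteases were counted in the same way, and their counts stand beside 10.7% higher and 11.7% lower over all tested in Ex3abERKO and 3.86% and 4.2% in Ex3aERKO. Of 10 genes of the plasminogen system, which activates several MMPs, 3 rose in Ex3abERKO, among them Plaur, the urokinase receptor, by 1.40 and Plat, tissue plasminogen activator, by 0.98 (adjusted p = 0.0111 and 0.0208). In Ex3aERKO 1 of the 10 rose, Serpinf2, a plasmin inhibitor, by 2.41 (adjusted p = 0.00327). Serpinf2 was -3.60, -3.02, -3.69 and -3.89 in control and -1.48, 0.50, -1.58 and -1.98 in Ex3aERKO. Its highest level was on Ex3aERKO 2, the array with liver markers at 111.6. The part of liver RNA in this difference was not tested. Of 16 activators and membrane partners, 4 rose and 1 fell in Ex3abERKO and 3 rose and 1 fell in Ex3aERKO. Reck, a membrane-anchored MMP inhibitor, was -0.46, -0.19, -0.75 and -0.53 in control. It was 0.97, 0.79, 1.12 and 0.49 in Ex3aERKO, a rise of 1.33 ± 0.23 with no overlap (adjusted p = 0.0033). Reck also lay above every control array in Ex3bERKO (0.13, 0.89, 0.73 and 0.00) and in Ex3abERKO (0.07, 0.59, 0.88 and 0.33). Pcsk6, a proprotein convertase, rose by 1.54 and 1.14 in Ex3aERKO and Ex3abERKO, Tspan10, a partner of Adam10, rose by 2.27 and 2.12, and Tspan15, another such partner, fell by 1.39 and 1.88 (all called).

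Among 21 tested substrates, 4 rose and 2 fell in Ex3abERKO. The proteoglycan decorin (Dcn) rose by 1.38 ± 0.27 (adjusted p = 0.00259) and collagen Col1a1 by 1.37 ± 0.36 (adjusted p = 0.013). A wider gap, downward, was that of the proteoglycan Bcan (brevican). Its levels were 0.35, 0.14, 0.10 and -1.02 in control and -3.65, -3.56, -3.99 and -2.71 in Ex3abERKO. In Ex3aERKO 1 of the 21 was called: Acan (aggrecan) was -2.59, -2.54, -1.98 and -2.57 in control and -0.88, -0.54, -1.09 and -0.97 in Ex3aERKO, a rise of 1.55 ± 0.30 (adjusted p = 0.00527), and it was 1.70 lower in Ex3abERKO than in Ex3aERKO (adjusted p = 0.00412). Of 7 ADAMTS-like proteins and papilin, which share ADAMTS domains but have no protease domain, 3 rose in Ex3abERKO: Adamtsl1 by 1.63, Adamtsl5 by 1.49 and Papln by 1.37, and Papln also rose in Ex3aERKO by 1.67. Of 14 ligands shed by ADAMs, 3 rose and 1 fell in Ex3abERKO, with Cx3cl1 (fractalkine) up by 1.56 and Tgfa down, at -0.88. In Ex3aERKO 2 rose and 1 fell, among them Kitl (Kit ligand), up by 1.27 (adjusted p = 0.0132). A wider gap was that of Areg (amphiregulin), at -8.81, -5.77, -8.88 and -8.58 in control, where the floor is -8.88. On Ex3aERKO arrays Areg was -2.28, -3.45, -4.93 and -4.12. None of 6 tested astacin proteases and procollagen enhancers was called in any comparison, and none of the genes of these lists was called in Ex3bERKO against control. Mmp12, macrophage elastase, left out of the 69, was 0.01, -1.17, -2.12 and -0.82 in control and 2.27, 2.76, 2.05 and 2.72 in Ex3abERKO, a rise of 3.47 ± 0.61 (adjusted p = 0.00116).

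Markers of several cell types moved with these results. Of 10 tested macrophage markers, 9 were higher in Ex3abERKO and 2 in Ex3aERKO, and their summed level was 437.4 to 486 on Ex3abERKO arrays and 180.3 to 253.1 on control arrays, with Ex3aERKO at 284.5 to 381.3 and Ex3bERKO at 211.1 to 330.7. The 5 mast cell markers summed to 1.61 to 2.516 in control and 18.59 to 26.98 in Ex3abERKO, with 4 of 5 higher. Of 7 stromal markers, 4 were higher and 1 lower in Ex3abERKO, with sums of 109.4 to 152.7 in control and 190.5 to 340.6. The 7 oocyte markers fell in Ex3aERKO (7 of 7) and Ex3abERKO (6 of 7), with sums of 1.066 to 5.178 and 4.127 to 6.32 beside 14.18 to 30.78 on control and 14.26 to 51.27 on Ex3bERKO arrays, and 5 of 7 endothelial markers fell in Ex3aERKO. Sums on Ex3abERKO arrays also lay wholly below control for theca and steroidogenic markers (76.5 to 144 beside 289.4 to 419.7) and granulosa cell markers (24.72 to 68.69 beside 84.5 to 134.8). They lay wholly above it for markers of giant-cell and lipid-laden macrophages (125.3 to 171.8 beside 13.27 to 26.56), lymphocytes (13.91 to 34.51 beside 2.793 to 6.422) and adipose tissue (52.08 to 98.93 beside 14.34 to 31.35). Surface epithelium markers summed to 15.05 to 22.14 in control, and to 26.79 to 82.9 and 35.89 to 59.32 without ERα and without both receptors. The part of these cell types in the levels of Mmp9, Adam8, Mmp14 and the other proteases was not tested.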

How the data were processed

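Cy3-labelled whole-ovary RNA was read on 16 1-colour Agilent arrays on 4 slides. Groups were not balanced over slides: Ex3abERKO had no array on slide 3, and Ex3bERKO had none on slide 2. Only slides 1 and 4 held arrays of both, so their difference is partly mixed with slide. Per the file headers, the deposited intensity values had background and a spatial trend subtracted within each array, with no scaling between arrays; the submitters' processing notes name Agilent Feature Extraction 9.5. The authors' series table of intensity values equalled them within 0.0001.

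Signals were divided by each array's 75th percentile, floored at -8.88 and taken to log2. Outlier spots and control spots were left out. Of 41174 probes, 36217 were well above background on at least 4 arrays, and the brightest probe represented a gene, leaving 24367 genes and transcripts, 18292 with a symbol. Symbols came from RefSeq (GRCm38.p6) by accession (22951 probes) or by a current (6659) or older (3109) file name, and 8455 probes had none.

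All 16 arrays were fitted with lmFit and eBayes of limma 3.58.1 (R 4.3.3) by group, with no covariate; p-values were adjusted by Benjamini-Hochberg. The fit was tested on simulated data. The number of arrays limits the precision. The genes and lists were chosen with earlier results of these data known. Every array value is given for the Timp genes, Mmp2, Mmp9, Mmp14 and, by size of difference, up to 10 called genes in each comparison with control and up to 5 in each other one. Other called genes are given by their difference. Figures were drawn with matplotlib 3.10.9.

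Alternatives were a replicate block, slide as a fixed or random block, array weights, a trended and robust fit, median scaling, quantile normalization, normexp, the authors' table, other filters, probe means, each array left out, the 3 arrays that stood apart left out, and the groups compared fitted alone. Normexp was run with a constant added to every spot before log2, which narrows the log2 differences of dim probes most. Its part in the calls lost with normexp was not tested.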

Additional observations from a re-analysis of the deposited data

Results flagged for a closer look

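Of 84 sets of 4 arrays (21 genes in 4 groups), 6 held an array far from the other 3 by Dixon's test at its 95% level, and chance gives about 1 in 20. They were Timp3 on control 2 (3.25), Adamts19 on Ex3aERKO 4 (-2.11), Mmp15 on Ex3aERKO 4 (-2.36) and on Ex3abERKO 3 (-3.61), Mmp8 on Ex3bERKO 2 (-4.10) and Adam33 on Ex3abERKO 1 (-0.74). In 3 genes the effect of ERβ loss differed with ERα absent or present by limma's interaction term: Adam11 (-2.19, adjusted p = 0.0158), Mmp13 (1.82, adjusted p = 0.0397) and Mmp11 (1.51, adjusted p = 0.0466). All 3 calls were lost with normexp (adjusted p = 0.260, 0.307 and 0.129), and those of Mmp13 and Mmp11 with slide as a fixed block.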

How the results depend on the processing

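Among the 21 genes with every array value given, no call changed direction under the 30 alternatives, and 14 of their 46 calls were kept under all of them. Of the other called genes, Adam15 changed sign with the mean of its probes (-0.01 against control and -0.03 against Ex3bERKO in Ex3abERKO). Counts of called genes were compared for Ex3aERKO, Ex3bERKO and Ex3abERKO against control, Ex3abERKO against Ex3aERKO and against Ex3bERKO, Ex3aERKO against Ex3bERKO, and the interaction, in that order. The replicate block gave 10, 1, 19, 8, 12, 3 and 2; same-numbered arrays did not deviate together (24 pairs, r from -0.294 to 0.433, median -0.068, 7 over 0.1), so the numbers were not taken as pairs; arrays of different groups on the same slide did more so (22 pairs, median r 0.278). Leaving out each array gave 8 to 12, 0 to 2, 11 to 20, 5 to 11, 7 to 16, 2 to 7 and 1 to 3. Slide as a fixed block gave 6 for Ex3abERKO against Ex3bERKO and 1 for the interaction, and slide as a random block gave 1 for Ex3bERKO. Array weights gave 21 for Ex3aERKO, 3 for Ex3bERKO, 8 for Ex3aERKO against Ex3bERKO and 7 for the interaction. A trended and robust fit gave 1 for Ex3bERKO and 5 for the interaction. Normexp gave 11 for Ex3abERKO, 5 and 7 for it against Ex3aERKO and Ex3bERKO, 1 for Ex3aERKO against Ex3bERKO and 0 for the interaction, and it moved the median difference of all genes to -0.34 in Ex3aERKO and -0.36 in Ex3abERKO. Without control 4, Ex3aERKO 2 and Ex3abERKO 2 the counts were 3, 0, 10, 5, 6, 2 and 1. With the groups compared fitted alone they were 3 for Ex3abERKO against Ex3aERKO, 6 against Ex3bERKO and 0 for Ex3aERKO against Ex3bERKO. Calls over all genes and transcripts tested moved too. In Ex3aERKO there were 1964 in the fit by group, 6257 with array weights and 565 without these 3 arrays. In Ex3abERKO there were 5447, 3121 with normexp and 3232 without these 3 arrays. Ex3abERKO against Ex3aERKO gave 1896, 747 with normexp and 852 without these 3 arrays. Against Ex3bERKO it gave 4069, 2151 with slide as a fixed block and 1930 with normexp. The cause of these changes was not tested. Signal over background limits Mmp3, Adam6a and Adam32, which were not well above it on every array.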
